A study of Rattus norvegicus with 6 samples.

Results

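The fibroblast growth factor (FGF) and platelet-derived growth factor (PDGF) genes described here are 5 ligand genes (Fgf1, Fgf2, Fgf9, Pdgfa and Pdgfb) and 5 receptor genes (Fgfr1, Fgfr2, Fgfr3, Pdgfra and Pdgfrb). They were chosen by name, and each of the 10 was found among the 22608 gene symbols of the deposited table. The libraries were made from poly(A) RNA of rat (Rattus norvegicus) primary astrocytes, which are glial cells grown in culture from brain. In 3 libraries the cells had received β-hydroxybutyrate (BHB), a ketone body that the liver makes during fasting, at 2 mM according to the column names. The other 3 libraries were controls of the same kind of culture, and their titles do not say whether a vehicle was given. The sources used here give neither the rat strain, the age of the animals nor the length of treatment. They do not say whether the libraries stand for separate cultures, so the spread between them may be technical.

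FGF ligands bind tyrosine kinase receptors together with heparan sulfate chains on the cell surface, and PDGF ligands are dimers that bind their own pair of tyrosine kinase receptors. Both receptor families signal through RAS and ERK, phosphoinositide 3-kinase and phospholipase C gamma, and the Sprouty proteins and the phosphatase DUSP6 limit the ERK signal. In brain, FGF2 is a mitogen for glia, FGFR3 is a marker of astrocytes and their precursors, PDGFRα marks oligodendrocyte precursors, for which PDGF-A is a growth factor, and PDGFRβ marks pericytes and other mural cells.

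Values are FPKM, fragments scaled to transcript length and to the size of the library, so levels of different genes can be set side by side. The sum of FPKM per library lay between 361730 and 367448 with BHB and between 354565 and 365566 in controls, and the number of fragments sequenced is unknown. Astrocyte markers were present throughout, with 11 of 11 at 1 FPKM or more in at least 3 libraries and Fabp7, a fatty acid binding protein of glia, the highest at 2304 ± 25.7 FPKM with BHB and 2319 ± 90.2 FPKM in controls (SD, n = 3 each). Slc1a3 was the only 1 of these 11 to pass the test over all genes described below. It stood at 468.0, 445.4 and 452.2 FPKM with BHB, against 204.7, 197.0 and 206.4 FPKM in controls (log2 fold change 1.16, limma adjusted p = 1.6e-05). Markers of other cells were found as well. They reached 1 FPKM in at least 3 libraries for 3 of 5 oligodendrocyte precursor, 3 of 6 oligodendrocyte, 5 of 8 mural, 3 of 7 fibroblast, 6 of 7 microglia, 4 of 7 neuron and 0 of 6 endothelial markers. The highest of each were Olig1, Cnp, Tagln, Col1a2, Cd68, Tubb3 and Tek, and the endothelial gene Cldn5 was listed at 0 in every library. In such bulk libraries, fewer cells of a type and less RNA per cell cannot be told apart.

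With BHB, none of the 8 FGF and PDGF genes that reached the minimum level passed the test over all genes. The gene for the astrocyte receptor FGFR3 and that for FGFR1 stood slightly above controls in each BHB library, by about 0.1 on the log2 scale, and that for FGFR2 slightly below. Pdgfa, which encodes the A chain of PDGF, had the largest difference of these 8 on the log2(FPKM + 1) scale, 0.26 lower with BHB. The groups of Fgf2, Pdgfb, Pdgfra and Pdgfrb overlapped, and their intervals included 0.

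Genes were tested if 3 or more libraries reached 1 FPKM. This left 12373 genes, which were compared with limma on log2(FPKM + 1), with p-values adjusted over all of them by the Benjamini-Hochberg method and a threshold of 0.05. Of these genes 7 passed, or 0.0566%, with 6 (0.0485%) higher and 1 (0.00808%) lower with BHB. Fgf1 and Fgf9 did not reach the minimum, and none of the other 8 passed (0 of 8). At an unadjusted p under 0.05 there were 3 of the 8, Fgfr1 and Fgfr3 higher and Pdgfa lower with BHB, where 5.59% of all genes tested met that threshold, 3.45% higher and 2.14% lower. That count of 3 became 0 without control 1 or BHB 2, 1 without control 2 or BHB 3, and 1 without the intensity trend of the fit. The groups did not overlap in 3 of the 8, Fgfr1, Fgfr2 and Fgfr3, where 10.9% of all genes tested had groups that did not overlap, 6.43% with BHB above and 4.45% with BHB below. The median log2 fold change over the 8 was -0.03, beside 0.0029 over all genes tested, and 3 of 8 lay above 0, beside 51.5% of all genes.

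**Figure D1:**
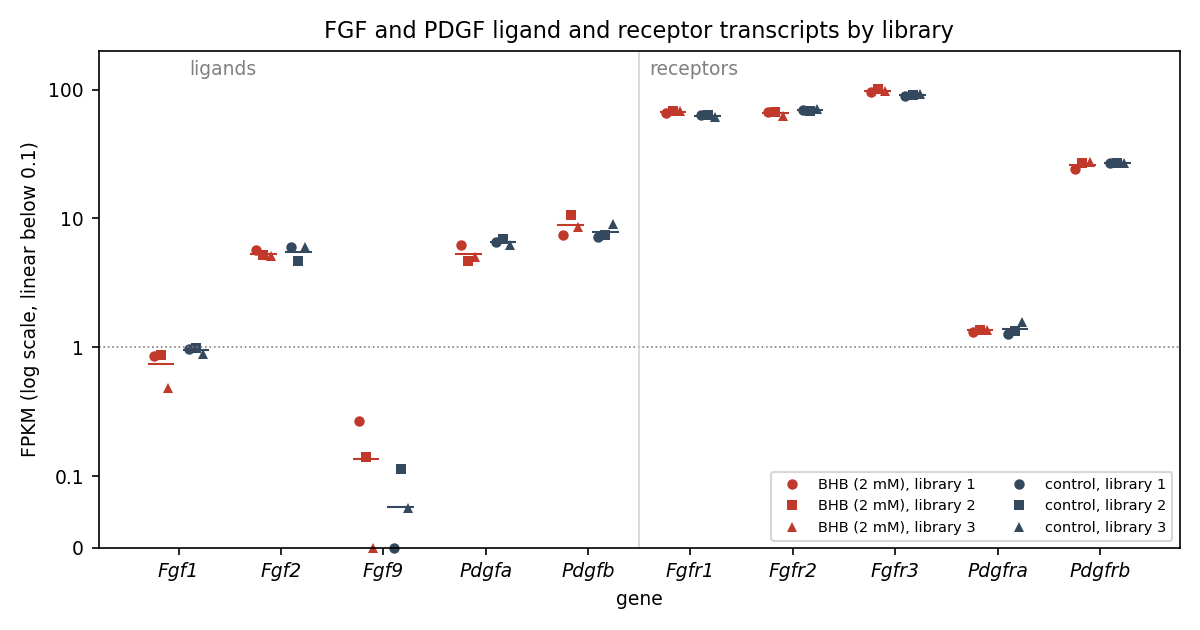
FPKM (log axis, linear below 0.1) of the 5 ligand and 5 receptor genes in each library, with BHB libraries in red on the left and control libraries in blue on the right of each pair; lines are group means and the dotted line is the minimum of 1 FPKM. The FGF receptor genes stand highest, at 60.9 FPKM or more in every library, and Fgf9 lowest, at 0.267 FPKM or less.

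The 10 transcripts covered a wide range of levels. Over the 6 libraries Fgfr3 averaged 94.4 ± 4.37 FPKM (SD, n = 6), more than 97.2% of the genes in the table. It was followed by Fgfr2, Fgfr1, Pdgfrb, Pdgfb, Pdgfa, Fgf2, Pdgfra, Fgf1 and Fgf9, the last at 0.0963 ± 0.102 FPKM (SD, n = 6). Of the 9 pairs of neighbours in this order, 7 had ranges that did not overlap in either group. The exceptions were Fgfr2 with Fgfr1 and Pdgfa with Fgf2. In controls the first of each of these pairs was higher in all 3 libraries, and with BHB their ranges overlapped.

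Among the ligands, Fgf2 encodes a mitogen that leaves cells without a classical signal peptide. It stood at 5.74, 5.17 and 5.11 FPKM with BHB, against 5.96, 4.70 and 5.95 FPKM in controls. The groups overlapped, and control 2 was the lowest of the 6 libraries. The log2 fold change (BHB over control) was -0.04 (SE 0.0949, 95% interval -0.26 to 0.18, limma adjusted p = 0.965), and its sign turned without control 1 or without control 3.

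Fgf1 encodes a ligand that binds all the classical FGF receptors. It was at 0.858, 0.876 and 0.486 FPKM with BHB, against 0.969, 0.981 and 0.890 FPKM in controls. All 6 values were under 1 FPKM, the BHB libraries lay below the controls, and BHB 3 was the lowest. With no minimum on the level its log2 fold change was -0.17 (95% interval -0.40 to 0.06, limma adjusted p = 0.904).

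Fgf9 encodes a secreted ligand that activates FGFR2 and FGFR3. It was listed at 0.267, 0.142 and 0 FPKM with BHB, against 0, 0.114 and 0.0556 FPKM in controls, and no fold is given at these levels. Fgf2 made up 86.2% ± 4.47 of the summed FPKM of Fgf1, Fgf2 and Fgf9 with BHB and 84.5% ± 2.92 in controls (SD, n = 3 each).

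Pdgfa stood at 6.26, 4.67 and 5.03 FPKM with BHB, against 6.52, 6.92 and 6.18 FPKM in controls. BHB 2 and BHB 3 lay below every control, while BHB 1 lay between control 3 and control 1. Means were 5.32 ± 0.832 FPKM with BHB and 6.54 ± 0.370 FPKM in controls (SD, n = 3 each), and the log2 fold change of -0.26 (SE 0.0988, 95% interval -0.49 to -0.04) did not pass, with an adjusted p of 0.881 in limma and 0.0285 before adjustment. It was -0.37 without BHB 1 and -0.19 without BHB 2.

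Pdgfb, which encodes the B chain, stood at 7.40, 10.6 and 8.65 FPKM with BHB, against 7.16, 7.37 and 9.12 FPKM in controls. BHB 2 was the highest library, and the groups overlapped. Its log2 fold change was 0.15 (SE 0.128, 95% interval -0.15 to 0.44, limma adjusted p = 0.910), and it was 0.03 without BHB 2. The ratio of Pdgfb to Pdgfa within a library was 1.18, 2.27 and 1.72 with BHB, against 1.10, 1.07 and 1.47 in controls, so that Pdgfb exceeded Pdgfa in each library and the groups overlapped. Summed, the pair stood at 14.2 ± 0.932 FPKM with BHB and 14.4 ± 0.821 FPKM in controls (SD, n = 3 each).

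Among the receptors, Fgfr3 was the most abundant, at 96.2, 101.0 and 97.1 FPKM with BHB, against 89.4, 91.2 and 91.7 FPKM in controls. Each BHB library lay above each control. Mean BHB over mean control was 1.08. On the log2(FPKM + 1) scale the difference of 0.11 (SE 0.0398, 95% interval 0.02 to 0.20) did not pass in limma, where p was 0.881 after and 0.0237 before adjustment.

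Fgfr1, which encodes an FGF receptor found in many tissues, stood at 65.5, 68.0 and 67.9 FPKM with BHB, against 64.0, 63.2 and 60.9 FPKM in controls. The groups did not overlap. In limma the log2 fold change was 0.10 (SE 0.0421, 95% interval 0.0012 to 0.19), with p at 0.881 after and 0.0478 before adjustment.

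Fgfr2 stood at 67.6, 67.3 and 62.9 FPKM with BHB, against 69.5, 67.9 and 70.8 FPKM in controls. Each BHB library lay below each control, with BHB 1 and control 2 close to each other and BHB 3 lowest. This gave a log2 fold change of -0.07 (SE 0.0454, 95% interval -0.18 to 0.03, limma adjusted p = 0.890), which was -0.04 without BHB 3. Fgfr1, Fgfr2 and Fgfr3 have 13, 25 and 4 RefSeq transcripts in the GRCr8 gene table, and the deposited values give no isoforms, so the b and c splice forms, which differ in the ligands they bind, were not distinguished.

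The differing signs of Fgfr1 and Fgfr2 can also be read within a library, where scaling between libraries has no part. The ratio of Fgfr1 to Fgfr2 was 0.970, 1.01 and 1.08 with BHB, against 0.921, 0.930 and 0.860 in controls. All 3 BHB libraries lay above all 3 controls. The ratio of Fgfr3 to Fgfr2 was 1.42, 1.50 and 1.54 with BHB, against 1.29, 1.34 and 1.30 in controls, again without overlap, whereas that of Fgfr3 to Fgfr1 overlapped, at 1.46 ± 0.0277 with BHB and 1.45 ± 0.0547 in controls (SD, n = 3 each). These ratios were chosen after the values were seen and were not tested. Fgfr1 and Fgfr3 lay above the controls in each BHB library and Fgfr2 below. The ratios to Fgfr2 therefore had to separate the groups and add no further evidence. As a share of the 3 receptors' summed FPKM, Fgfr1 held 29.0% ± 0.647 with BHB and 28.1% ± 0.772 in controls (SD, n = 3 each). The summed FPKM of Fgfr1, Fgfr2 and Fgfr3 was 229.3, 236.2 and 227.9 with BHB, against 222.8, 222.4 and 223.4 in controls. Each BHB library lay above each control in this sum, with BHB 2 the highest. The sum holds Fgfr1 and Fgfr3, which already separated the groups in that direction. It was not tested and is not independent evidence.

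**Figure D2:**
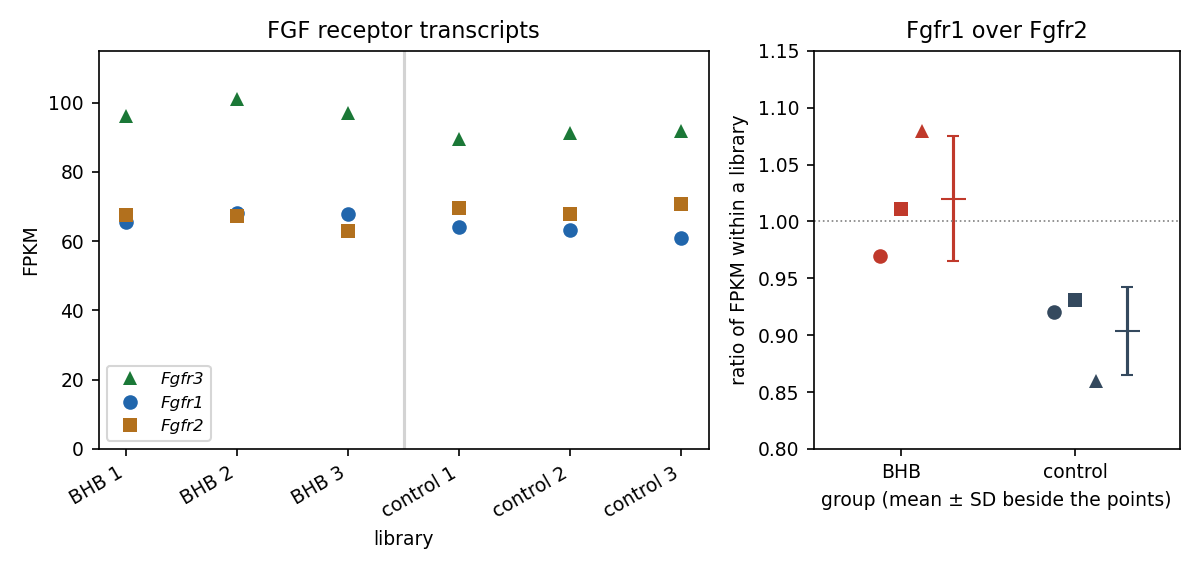
Left, FPKM of Fgfr3 (triangles), Fgfr1 (circles) and Fgfr2 (squares) in each library, BHB libraries left of the controls; right, the ratio of Fgfr1 to Fgfr2 within each library, with mean ± SD beside the points (n = 3 each; the axis starts at 0.8 and the dotted line marks a ratio of 1). Fgfr1 and Fgfr2 lie close together with BHB, while Fgfr1 lies below Fgfr2 in each control, at ratios of 0.860 to 0.930.

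The promoter windows of the genes with the lowest p among receptors and ligands, and of Fgfr2 with its opposite sign, are shown to give the sequence at which these transcripts start. Each runs 300 bases from upstream of a RefSeq gene start of build GRCr8 into the transcript and is given 5′ to 3′ on the gene's strand. The windows are chr14:81227160-81227459 for Fgfr3 and chr1:194280865-194281164 for Fgfr2, both on the minus strand, and chr12:20759116-20759415 for Pdgfa on the plus strand. Capitals mark GC boxes, the letters GGGCGG on either strand, which SP1 family factors can bind.
Fgfr3: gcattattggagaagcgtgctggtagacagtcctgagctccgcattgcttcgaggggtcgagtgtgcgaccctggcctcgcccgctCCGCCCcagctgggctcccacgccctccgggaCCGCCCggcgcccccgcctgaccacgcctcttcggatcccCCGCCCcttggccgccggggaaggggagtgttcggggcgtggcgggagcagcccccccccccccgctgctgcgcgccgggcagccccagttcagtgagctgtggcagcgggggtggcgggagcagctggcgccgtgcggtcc
Fgfr2: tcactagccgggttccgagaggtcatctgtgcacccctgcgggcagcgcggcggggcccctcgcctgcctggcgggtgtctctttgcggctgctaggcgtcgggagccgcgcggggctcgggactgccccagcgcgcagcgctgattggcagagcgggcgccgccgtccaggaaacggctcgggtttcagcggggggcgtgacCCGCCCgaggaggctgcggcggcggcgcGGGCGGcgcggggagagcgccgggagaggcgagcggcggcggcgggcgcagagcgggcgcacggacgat
Pdgfa: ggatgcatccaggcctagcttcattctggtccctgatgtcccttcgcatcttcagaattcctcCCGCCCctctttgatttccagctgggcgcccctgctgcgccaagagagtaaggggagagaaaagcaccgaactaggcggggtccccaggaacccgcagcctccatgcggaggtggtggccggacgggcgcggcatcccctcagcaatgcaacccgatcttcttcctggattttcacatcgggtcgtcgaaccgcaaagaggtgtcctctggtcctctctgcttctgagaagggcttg

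The Fgfr3 window held 3 GC boxes, the Fgfr2 window 2 and the Pdgfa window 1, none overlapping, and 33.1% of the 33469 rat promoter windows of this length held at least 1. The Fgfr3 and Fgfr2 windows consisted of G and C to 74.7% and 77.7%. The letters TGANTCA, the motif of the AP-1 factor formed by FOS and JUN proteins, are the same read on either strand and were in none of these 3 windows. Of the 8 genes with a window in the table, which lacks Fgfr1 and Pdgfrb, only Pdgfra held that motif, where 7.33% of all windows did. The windows cover a single start of each gene, and a match is only a match of letters.

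Pdgfrb stood at 24.0, 27.0 and 27.4 FPKM with BHB, against 27.0, 26.8 and 26.8 FPKM in controls. BHB 1 was the lowest library, and the other BHB libraries lay just above the controls. Its log2 fold change was -0.04 (SE 0.0585, 95% interval -0.17 to 0.10, limma adjusted p = 0.942), and its sign turned without BHB 1. Beside this receptor of mural cells, the contractile genes Tagln and Acta2, which cultured astrocytes can also express, were abundant, at 3104 ± 109 and 1334 ± 61.5 FPKM with BHB and 3030 ± 142 and 1285 ± 72.2 FPKM in controls (SD, n = 3 each). The pericyte genes Rgs5, Kcnj8 and Abcc9 averaged 1.37, 0.134 and 0.174 FPKM with BHB and 1.26, 0.0419 and 0.234 FPKM in controls. Notch3 and Myh11 averaged 12.2 and 10.3 FPKM with BHB and 10.8 and 11.1 FPKM in controls, each without overlap, in opposite directions. They were the 2 without overlap among the 5 mural genes tested, beside 10.9% of all genes tested. Abcc9, under the minimum level, was lower in each BHB library than in each control. Des averaged 0.601 FPKM with BHB and 0.483 FPKM in controls. The 8 mural markers summed to between 4282 and 4614 FPKM with BHB and between 4091 and 4467 FPKM in controls, and the 7 fibroblast markers to between 354.1 and 404.9 FPKM with BHB and between 368.3 and 395.8 FPKM in controls. Tagln and Acta2 made up most of the mural sum, and Col1a2 and Col1a1 most of the fibroblast sum. Col1a2, Col1a1 and Col3a1 averaged 266.2, 100.4 and 14.2 FPKM with BHB and 270.9, 98.8 and 13.9 FPKM in controls. Dcn, Lum, Foxc1 and Slc6a13 averaged 0, 0.112, 0.208 and 0.0067 FPKM with BHB and 0.0108, 0.1185, 0.188 and 0 FPKM in controls. The part of mural cells and fibroblasts in the Pdgfrb level was not tested.

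Pdgfra stood far lower, at 1.32, 1.37 and 1.37 FPKM with BHB, against 1.27, 1.34 and 1.57 FPKM in controls. Control 3 was the highest library and the groups overlapped. The log2 fold change was -0.02 (SE 0.0844, 95% interval -0.22 to 0.17, limma adjusted p = 0.979), and its sign turned without control 3. Pdgfrb made up 95.1% of the summed FPKM of both PDGF receptor genes in each group, with an SD of 0.233 with BHB and 0.543 in controls (n = 3 each). Of the oligodendrocyte precursor markers, Olig1, Olig2 and Cspg4 averaged 25.8, 8.70 and 2.02 FPKM with BHB and 24.8, 7.78 and 1.93 FPKM in controls, and Sox10 and Gpr17 averaged 0.271 and 0.0506 FPKM with BHB and 0.260 and 0.0424 FPKM in controls. The 5 markers summed to between 35.7 and 38.7 FPKM with BHB and between 34.2 and 35.4 FPKM in controls, and their part in the Pdgfra level was not tested.

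**Figure D3:**
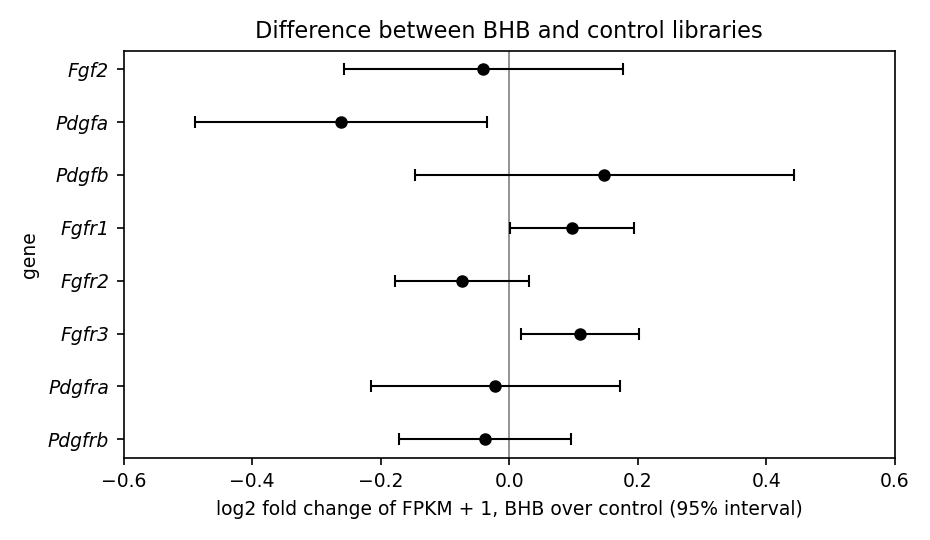
Log2 fold change of FPKM + 1, BHB over control, with its 95% interval from limma, for the 8 genes that reached the minimum level. The intervals of Fgfr1, Fgfr3 and Pdgfa exclude 0 before adjustment for the 12373 genes tested, and none passed after it.

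The other genes of the pathway were grouped into 9 lists, of which 81 genes were tested and none passed in either direction (0 higher, 0 lower). At an unadjusted p under 0.05 there were 7, or 8.64%, 5 higher and 2 lower with BHB, beside 5.59% of all genes, and the groups did not overlap in 12, or 14.8%, beside 10.9% of all genes. Of 15 other FGF ligand genes, 9 were listed at 0 in every library (Fgf4, Fgf5, Fgf6, Fgf8, Fgf16, Fgf17, Fgf19, Fgf20 and Fgf21). Only Fgf22, a ligand known from synapse formation, was tested, at 2.41, 2.25 and 1.76 FPKM with BHB, against 1.83, 1.34 and 1.16 FPKM in controls. BHB 3 lay below control 1, so the groups overlapped. The log2 fold change of 0.37 (SE 0.126) did not pass, with an adjusted p of 0.881 in limma and 0.0193 before adjustment.

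The FGF homologous factors stay inside cells and act on sodium channels rather than on receptors. Of 4 such genes 3 were tested. Fgf13 averaged 4.54 ± 0.175 FPKM with BHB and 5.19 ± 0.332 FPKM in controls (SD, n = 3 each), without overlap (log2 fold change -0.16, limma adjusted p = 0.881), while Fgf11 and Fgf12 had log2 fold changes of 0.07 and -0.02. Among other receptor genes, Fgfrl1, whose protein lacks a kinase domain, averaged 32.9 ± 3.75 FPKM with BHB and 31.6 ± 1.47 FPKM in controls (SD, n = 3 each). Fgfr4 averaged 0.608 and 0.541 FPKM with BHB and in controls. The klotho coreceptor genes Kl and Klb, on which endocrine FGF ligands depend, were at or under 0.173 FPKM on average in either group.

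Pdgfc encodes a PDGF that is cut to become active, and its transcript was more abundant than Pdgfa and Pdgfb, at 37.7 ± 0.173 FPKM with BHB and 37.3 ± 4.01 FPKM in controls (SD, n = 3 each). Between the groups it differed by 0.02 on the log2(FPKM + 1) scale (adjusted p = 0.980 in limma). Pdgfd averaged 6.07 and 6.40 FPKM and the receptor-like gene Pdgfrl 16.2 and 15.7 FPKM with BHB and in controls, with log2 fold changes of -0.07 and 0.04.

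Heparan sulfate proteoglycans hold FGF ligands at the cell surface. All 12 such genes were tested, 6 with a log2 fold change above 0 and a median of -4.4e-05. The glypican genes Gpc4 and Gpc1 were the most abundant, at 165.5 and 128.0 FPKM with BHB and 161.4 and 125.2 FPKM in controls. The smallest p was that of Agrn, which encodes agrin, at 65.3, 59.0 and 57.6 FPKM with BHB, against 68.2, 68.1 and 70.2 FPKM in controls. Each BHB library lay below each control, and the log2 fold change of -0.18 (SE 0.0544) did not pass, with an adjusted p of 0.881 in limma and 0.0095 before adjustment. The syndecan genes Sdc4 and Sdc1 had log2 fold changes of 0.11 and 0.10. All 12 genes of heparan sulfate synthesis and editing were tested as well, 8 above 0 with a median of 0.02. Ext2, of chain elongation, averaged 55.5 and 52.4 FPKM with BHB and in controls, and the sulfatase gene Sulf2 48.2 and 48.5 FPKM. The sulfotransferase gene Hs6st1 and the heparanase gene Hpse had log2 fold changes of 0.08 and -0.14, which were 0.03 and -0.07 without BHB 2.

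Of the genes that process or trap the ligands, 11 were tested, with 8 above 0 and a median of 0.03. Sparc, whose protein binds PDGF, stood at 1463, 2936 and 1598 FPKM with BHB, against 1521, 1531 and 1441 FPKM in controls. Only BHB 2 stood apart, and the log2 fold change of 0.34 became 0.03 without it. Fgfbp1, a carrier that frees FGF from the matrix, averaged 3.18 ± 0.466 FPKM with BHB and 4.06 ± 0.662 FPKM in controls (SD, n = 3 each). The difference of -0.27 on the log2(FPKM + 1) scale did not pass (adjusted p = 0.881 in limma) and was -0.17 without control 3. Furin, a protease that matures PDGF chains, and Lrp1, a coreceptor that interacts with PDGFRβ, had log2 fold changes of 0.19 and 0.04, and that of Furin was 0.08 without control 1.

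Of 28 genes of adaptors and transducers 27 were tested, 14 above 0 with a median of 0.0028. The kinase genes Mapk3 and Map2k1, which encode ERK1 and its activator MEK1, had log2 fold changes of 0.05 and 0.14, and Map2k1 stood at 15.8, 16.1 and 15.0 FPKM with BHB, against 13.4, 14.4 and 14.6 FPKM in controls, without overlap (limma adjusted p = 0.881). The adaptor gene Crk, the GTPase gene Hras and the phosphoinositide 3-kinase gene Pik3cb had log2 fold changes of 0.03, 0.16 and -0.12, and that of Hras was 0.06 without control 1. The gene left out of the test was Crkl, which was listed at 11.1 FPKM in BHB 1 and at 0 in the other 5 libraries. An exact 0 in a table without counts can be a failed estimate, so these values do not show whether Crkl was expressed.

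Genes that ERK signalling induces, namely ETS factors of the Etv group and feedback inhibitors, had the highest median of the lists with more than 1 gene tested. Of 14 such genes 11 were tested, with 10 above 0, a median of 0.12 and groups that did not overlap in 6, beside 51.5% above 0 and 10.9% without overlap over all genes tested. Under the minimum level were Spry3, Dusp4 and Dusp5. They averaged 0.0443, 0.101 and 0.714 FPKM with BHB and 0.0875, 0.240 and 0.561 FPKM in controls. Of these only Dusp4 had groups that did not overlap, with BHB below. The Sprouty genes Spry2 and Spry4 and the phosphatase gene Dusp6 had the smallest p. Spry2 stood at 17.3, 19.5 and 18.0 FPKM with BHB, against 15.6, 14.4 and 13.8 FPKM in controls. Each BHB library lay above each control, with a log2 fold change of 0.30 (SE 0.0670). In limma its p was 0.795 after and 0.0018 before adjustment, so it did not pass. Spry4 and Dusp6 had log2 fold changes of 0.31 and 0.16, also without overlap (limma adjusted p = 0.881 each), and that of Dusp6 was 0.10 without BHB 2. Etv5, the most abundant of them, averaged 27.8 ± 0.271 FPKM with BHB and 26.7 ± 1.31 FPKM in controls (SD, n = 3 each; limma adjusted p = 0.910).

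**Figure D4:**
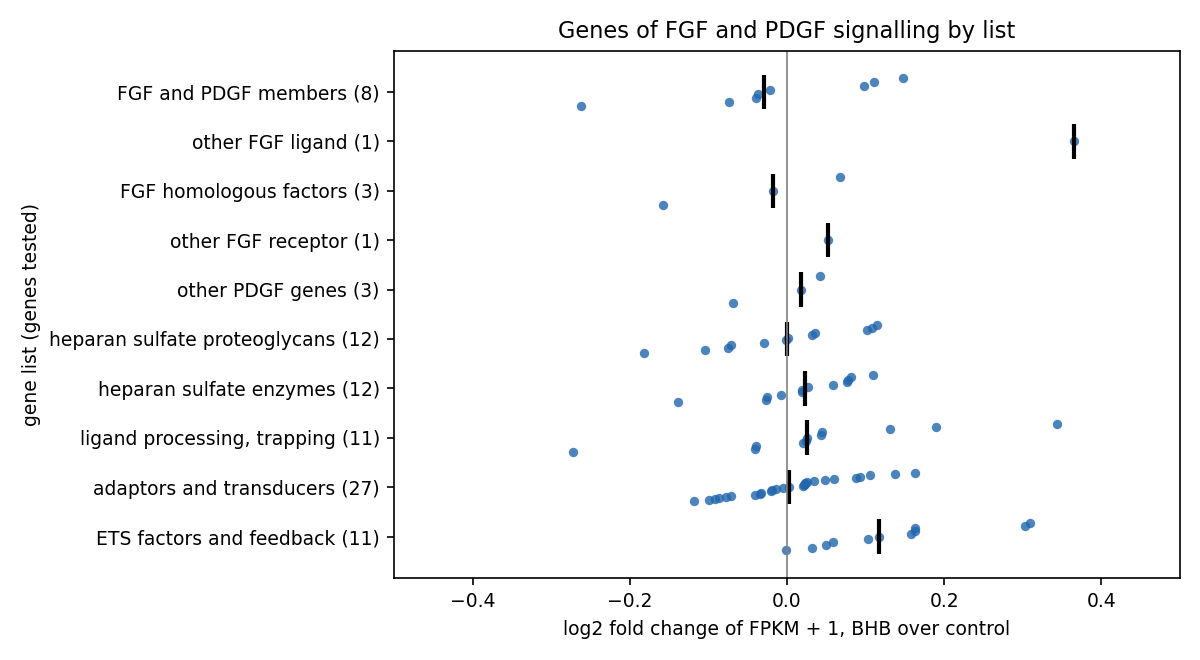
Log2 fold change of FPKM + 1, BHB over control, of each gene tested, by list, with the number tested in parentheses; points are genes, spread vertically for legibility, and black lines are medians. The ERK-induced ETS factor and feedback genes lie mostly to the right of 0 (median 0.12), and none of the genes shown passed the test.

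The profile of Fgfr3, which had the smallest p among the FGF and PDGF genes, was compared with those of the 12372 other genes tested. Kif1c, a kinesin gene, came closest, with a root mean square difference of 0.0145 on the centred log2 scale over 6 libraries, followed by Ccdc6 (0.0149) and the lamin gene Lmna (0.0171). Lmna stood at 51.1, 51.7 and 51.5 FPKM with BHB, against 46.6, 47.4 and 47.9 FPKM in controls. With so many genes and 6 libraries, close profiles are found for many genes.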

How the data were processed

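The authors deposited a table of FPKM values per gene symbol for the 6 libraries (3 BHB, 3 control), from poly(A) RNA and TruSeq libraries per the labels' protocols. bcl2fastq 2.0, HISAT2, StringTie, DESeq2 and build rn6 are listed in the submitters' processing notes, with no roles or settings; the annotation, strand setting and handling of shared reads are not stated there. FPKM does not keep read counts, so depth is unknown and no count test was run. Values were used as log2(FPKM + 1), which understates differences of low genes, with no further scaling. limma 3.58.1 in R 4.3.3 (eBayes with an intensity trend, two-sided) was fitted to genes that reached 1 FPKM in 3 or more libraries. On simulated data with normal noise and log2 changes from 0.25 to 1.5, the fit recovered 20.1% of changes of 0.25 and 84.7% of those of 0.5. Of its calls 6.63% were false. More genes were changed there than passed in the real libraries, which eases the adjusted threshold, so recovery in the real libraries may be lower. Differences as small as those of the FGF and PDGF genes would thus mostly be missed. Fold changes, SE, intervals (95%) and p-values come from that fit.

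Fgf2, Fgf9 and Pdgfb had at most 6 decimals in each library, and the other 7 genes had more; no source used here says how such values were combined from transcripts. Promoter sequences and transcript numbers are from RefSeq (GRCr8), and all 10 symbols matched its gene table. The members, lists, tests and alternatives were chosen with earlier results of these data known. From each list the 2 most abundant and the 3 genes with the smallest p were named. From cell type lists it was the most abundant, besides genes listed at 0. Fgfr4, Kl, Klb, Crkl, Acta2, Rgs5, Kcnj8, Abcc9, Notch3 and Myh11 were added after their values were seen. So were Des, Olig2, Cspg4, Sox10, Gpr17, Slc1a3, Spry3, Dusp4, Dusp5, Col1a1, Col3a1, Dcn, Lum, Foxc1 and Slc6a13. Alternatives were another pseudocount, filter, scaling or error model, a replicate block and leaving out each library.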

Additional observations from a re-analysis of the deposited data

How the results depend on the processing

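None of the FGF and PDGF genes passed at an adjusted p under 0.05 in limma under any alternative run, where the lowest adjusted p was 0.685 (without BHB 1). In the main fit 3 of the 8 had an unadjusted p under 0.05, beside 5.59% of all genes tested. Under the alternatives that count ran from 0 to 3. Of 80 values of these 8 genes under the 10 alternatives that can move a fold change, 76 kept their direction, and leaving out a library moved the value by over 1.5 times for 5 of the 8. Leaving out a library took the log2 fold change of Fgf2 between -0.136 and 0.0085, that of Pdgfra between -0.0593 and 0.0308 and that of Pdgfrb between -0.0718 and 0.0198. Of 7 genes called over the whole table, 4 were called without the eBayes trend, 3 at an adjusted p under 0.01 and 2 among genes with at most 6 decimals, where fewer genes are tested. Leaving out a library gave 5 to 10, of which 3 or 4 were among those 7. Deviations of same-numbered libraries had correlations of -0.0899, 0.164 and -0.151. The deviations were taken from the mean of each group, so each library must have correlations of both signs with the other group. Each BHB library correlated best with a different control. These were BHB 1 with control 3 (0.203), BHB 2 with control 2 (0.164) and BHB 3 with control 1 (0.186), and all other pairs were negative. The replicate block pairs libraries by number, so of these pairs it holds only BHB 2 with control 2. The fit with that block called 2 genes, none of them an FGF or PDGF gene. For 30 other pathway genes the same alternatives were added after seeing the data, and of 300 values that could turn 286 kept their direction, while leaving out a library moved the value by over 1.5 times for 22 of the 30. Leaving out a library took Fgf12 between -0.213 and 0.186, Fgf11 between -0.0070 and 0.119, Fgfrl1 between -0.0360 and 0.111, Pdgfc between -0.0452 and 0.0996, Pdgfrl between -0.0176 and 0.117, Pdgfd between -0.134 and 0.0185, Sulf2 between -0.0582 and 0.0479 and Mapk3 between -0.0156 and 0.0984, and array weights took Fgf12 to 0.0080. The cause was not tested.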
